A study of Mus musculus with 113 samples.

Results

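The genes described here carry glucose to the TCA cycle. They are 35 genes listed by symbol, chosen for their role and not for a measured value, among the 24006 genes with FPKM (fragments scaled by transcript length and by the number of mapped fragments) in each library. All 35 were found in all 92 libraries. They encode the glucose carriers Slc2a1 and Slc2a3, the pyruvate and lactate carrier Slc16a1, 12 glycolytic genes from Hk1 to Eno1 with the lactate dehydrogenases Ldha and Ldhb after them, the pyruvate dehydrogenase genes Pdha1, Pdhb and Dlat with their inhibitory kinase Pdk1, pyruvate carboxylase Pcx, and 13 genes of the TCA cycle.

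Glycolysis splits glucose to pyruvate in the cytosol, lactate dehydrogenase interconverts pyruvate and lactate, and the pyruvate dehydrogenase complex feeds pyruvate into the TCA cycle of mitochondria as acetyl-CoA. The cleavage-stage mouse embryo is known to depend on pyruvate and lactate first and to use glucose well only as it nears compaction. NR5A2 is an orphan nuclear receptor that binds DNA as a monomer, and Rarg, Nr1h3 and Nr2c2 encode other nuclear receptors.

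The embryos came from C57BL/6N females crossed with PWK/PhJ males and were injected as zygotes, so every group, controls included, was injected. Pools of embryos received siRNAs against Nr5a2, Rarg, Nr1h3 and Nr2c2 (knockdown, KD) or a negative control siRNA (NC), with 2 libraries in each of 16 groups. The paper's methods give 3 siRNAs for each gene, and the siRNA of a receptor means here the mix against that gene. All 4 siRNAs were given together to 4C and 8C embryos, and 3 of the 4 were given to 8C embryos in 4 combinations. Each siRNA was given alone to 8C embryos, and the Nr5a2 siRNA was given alone to 2C embryos. The mix against each receptor was used at 5 µM, except the Nr5a2 mix for 2C embryos at 20 µM. The NC siRNA was used at 20 µM for the 4-siRNA and 2C series, 15 µM for the 3-siRNA series and 5 µM for the single siRNAs. The remaining 60 libraries were single embryos injected with cytosine base editor mRNA alone (BE), with an sgRNA against Nr5a2 alone (sg), or with both (BE_sg), each at 100 ng/µl, with 8, 8 and 14 embryos at 2C and the same numbers at 8C. Knockdown lowers the message for a time only, and an edited embryo can be a mosaic of alleles. Nothing in the labels ties replicates to separate matings or injection days, so p-values measure the spread between these libraries, which may be partly technical.

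The sum of FPKM was 265390 to 556462 in pools and 83392 to 474480 in single embryos. Nr5a2 was lower in every pool that received its siRNA than in the NC pools of its series (2.72 to 17.7 against 19.4 to 50.3 FPKM). In edited 8C embryos, where the message is altered and not removed, the median of Nr5a2 was 47.9 FPKM beside 47.5 in BE and 41.8 in sg embryos. The summed FPKM of 7 markers of the 2C embryo had a median of 591 in 2C libraries and 8.26 in 8C libraries. Of 10 cumulus and granulosa cell markers, 7 at 2C and 9 at 8C had a median under 0.1 FPKM. The sum of all 10 had a median of 26.8 FPKM at 2C (5.29 to 75.8) and 13.4 at 8C (1.03 to 49.4), and its part in the members' values was not tested. 3 libraries stood apart from their labels in their column names, which give the 4-cell stage: replicate 8 of the 2C sg embryos, where the 2C markers Tcstv1 and Zscan4c were listed at 0, and replicates 13 and 14 of the 8C BE_sg embryos, where Tcstv1 was at 113 and 18.1 FPKM. Without these 3 libraries the single-embryo stage comparison called 28 members as before, but 14 rose and 14 fell, because Fh1 lost its call and Idh3a gained one, and editing called none at either stage. Among 8C pools the sum of the 2C markers was 311 FPKM in replicate 1 of the Nr2c2 KD pools, above the 117 and 305 of the 4C NC pools, and 81.1 in replicate 2 of the Rarg KD pools and 80.7 in replicate 1 of the pools without Rarg siRNA, against 1.21 to 23.0 in the other 8C pools. The 8C sg embryos placed in the BE4 set described below (replicates 5 to 8) had FPKM sums of 207918 to 268257. The 8C BE embryos had 413397 to 474480.

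The sequences in front of 4 members are shown because these genes carry the results below: Sucla2 and Idh2 were low and Ldha was high in 8C embryos given Nr5a2 siRNA, and Ldhb had the largest stage change. Each is the 250 bases before the RefSeq start of a transcript (RefSeq table of GRCm38.p6), 5′ to 3′ on the strand of the gene and placed in mm9, the build of the files, by exact match. Capitals mark AAGGTCA or AAGGCCA, the core of the NR5A2 motif, on either strand.
Sucla2, chr14:73952343-73952592, plus strand: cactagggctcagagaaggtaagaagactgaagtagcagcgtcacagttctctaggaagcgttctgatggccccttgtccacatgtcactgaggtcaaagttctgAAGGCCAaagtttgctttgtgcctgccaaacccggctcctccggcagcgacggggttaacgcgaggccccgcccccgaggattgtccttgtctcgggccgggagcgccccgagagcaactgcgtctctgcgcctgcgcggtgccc
Idh2, chr7:87260237-87260486, minus strand: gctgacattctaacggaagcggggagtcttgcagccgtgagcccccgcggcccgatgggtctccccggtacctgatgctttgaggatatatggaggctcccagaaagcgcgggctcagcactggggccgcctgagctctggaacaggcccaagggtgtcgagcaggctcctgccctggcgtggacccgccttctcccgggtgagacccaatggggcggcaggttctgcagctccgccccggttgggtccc
Ldha, chr7:54100924-54101173, plus strand: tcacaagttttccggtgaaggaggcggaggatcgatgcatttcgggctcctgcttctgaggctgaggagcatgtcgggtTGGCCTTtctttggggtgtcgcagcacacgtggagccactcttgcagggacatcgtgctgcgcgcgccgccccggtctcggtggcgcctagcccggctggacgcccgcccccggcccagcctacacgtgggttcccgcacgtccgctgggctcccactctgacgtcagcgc
Ldhb, chr6:142456478-142456727, minus strand: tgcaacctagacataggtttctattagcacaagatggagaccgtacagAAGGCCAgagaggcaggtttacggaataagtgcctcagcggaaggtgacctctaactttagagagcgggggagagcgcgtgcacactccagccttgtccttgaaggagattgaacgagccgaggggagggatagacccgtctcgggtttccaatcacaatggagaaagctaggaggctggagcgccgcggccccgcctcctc
The 7-letter core lies 145 bases before the start of Sucla2, 171 bases before that of Ldha on the opposite strand and 202 bases before that of Ldhb, and these letters are not in the window of Idh2. A second RefSeq start of Ldha, whose window holds no copy, lies downstream. The windows of Suclg1 and Hk1, searched in the same way and not shown, hold no copy. Over the 33 members with a promoter in the table, 6 hold the 7-letter core (Eno1, Ldha, Ldhb, Dlst, Sucla2 and Suclg2; 18.2%), against 10.3% of 27025 genes. Some genes have several windows, and counted by window the core is in 6 of 49 (12.2%) against 9.09% of 32851. With one more letter (CAAGGTCA or CAAGGCCA, each of which contains the shorter core) the count by gene is 1 of 33 (Suclg2; 3.03%) against 3.76% of all genes. These matches are a description of letters and say nothing of binding.

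Between the 2C and the 8C stage of control embryos the genes around pyruvate changed places. In 32 single control embryos (8 BE and 8 sg per stage), the lactate dehydrogenases Ldhb and Ldha and the pyruvate dehydrogenase kinase Pdk1 fell, while Pdha1, the catalytic subunit that Pdk1 phosphorylates, the isocitrate dehydrogenase subunits Idh3b and Idh3g, the succinyl-CoA ligase subunits Suclg1 and Sucla2 and the hexokinase Hk1 rose. Of 34 members with a mean of at least 1 FPKM in a group, 15 rose and 13 fell at an adjusted p under 0.05 (limma on log2(FPKM + 1), Benjamini-Hochberg adjustment over 12991 genes). Of all genes tested, 28.9% rose and 43.6% fell, so a change between these stages is no mark of the members. Their median log2 fold change was 0.25, beside −0.31 for all genes. FPKM are scaled by the mapped fragments of each library, but their sum still differs between libraries. When each library was rescaled to a common sum the median of all genes moved to −0.69 and 11 members rose and 17 fell. Directions below are those of FPKM as deposited. In whole embryos a lower FPKM can come from fewer cells with the message or from less message per cell, and these cannot be told apart. The summed FPKM of 8 oocyte markers had a median of 1500 at 2C and 53.8 at 8C, so maternal RNA fell over the same interval, and its part in these changes was not tested.

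**Figure D1:**
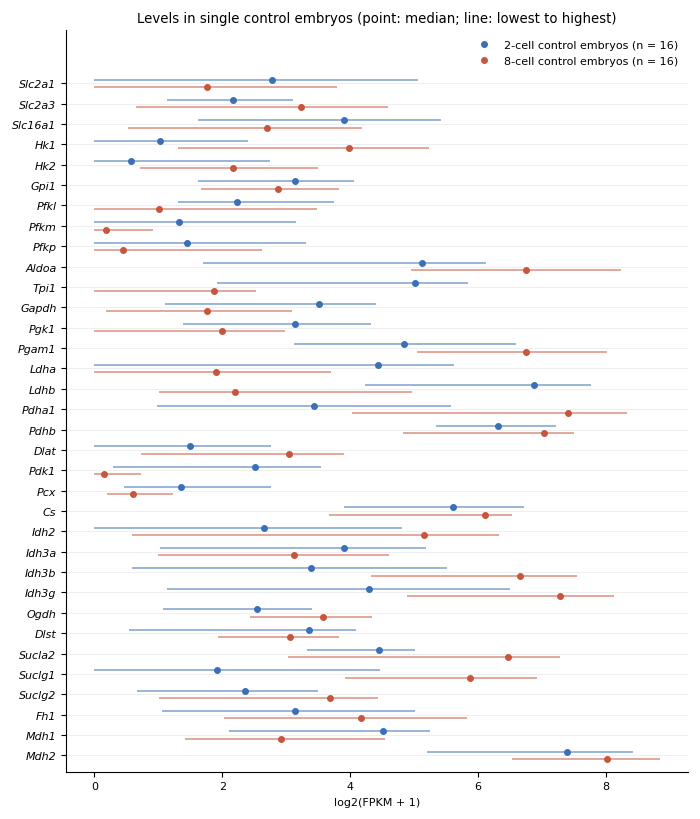
Level of 34 members (Eno1 left out) in 16 single control embryos per stage, on a log2(FPKM + 1) axis, with the median as a point and the lowest to highest embryo as a line. Ldhb, Tpi1 and Pdk1 lie higher at 2C, and Pdha1, Idh3b, Suclg1 and Hk1 lie higher at 8C.

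The order of the levels turned over around Ldhb. FPKM are per length of transcript, so levels can be set beside each other. Among the 2C control embryos the highest medians were those of Mdh2, the mitochondrial malate dehydrogenase (166 FPKM), Ldhb (117), Pdhb, the other subunit of the pyruvate dehydrogenase E1 component (78.6), and Cs, citrate synthase (47.7). At 8C the order began with Mdh2 (260 FPKM), Pdha1 (169), Idh3g (155) and Pdhb (130.0), and the range of each of these overlapped that of its neighbours at both stages.

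The carriers moved in different directions. Slc2a3, a high-affinity glucose carrier, rose from a median of 3.48 FPKM (1.19 to 7.61) to 8.39 (0.576 to 23.2), with a log2 fold change of 1.02 ± 0.30 (SE). Slc2a1, the widely expressed glucose carrier, fell from 5.83 to 2.39 FPKM and was listed at 0 in at least 1 embryo of each stage. Slc16a1 fell from 14.04 (2.08 to 42.1) to 5.49 FPKM (0.433 to 17.1), by 1.22 ± 0.40 on the log2 scale. All 3 groups of values overlapped between the stages.

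Both hexokinases, which trap glucose in the cell as its phosphate, rose from near nothing. Hk1 had a median of 1.03 FPKM at 2C (0 to 4.30) and 14.8 at 8C (1.47 to 36.7), a log2 fold change of 2.80 ± 0.30 with an adjusted p of 1.67e-12. Hk2 went from 0.493 to 3.52 FPKM (log2 fold change 1.34 ± 0.31). The 3 phosphofructokinase genes stayed low and fell: Pfkl, the liver form, from a median of 3.68 to 1.01 FPKM, Pfkm, the muscle form, from 1.501 to 0.129, and Pfkp, the platelet form, from 1.75 to 0.369.

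The later part of glycolysis was divided. Aldoa, an aldolase, rose from a median of 34.02 to 107 FPKM (log2 fold change 2.16 ± 0.42) and Pgam1, a phosphoglycerate mutase, from 27.6 to 107 (1.82 ± 0.32). Tpi1, the triosephosphate isomerase, fell from 31.3 FPKM (2.77 to 56.2) to 2.68 (0 to 4.78), by 3.00 ± 0.34 on the log2 scale. Gapdh fell from 10.48 to 2.40 FPKM and Pgk1, the first ATP-yielding step, fell from 7.82 to 3.00. Gpi1, which follows hexokinase, had medians of 7.85 and 6.30 and did not pass the test. Rescaled to a common sum, Gpi1 was called lower (−0.80, adjusted p of 0.00208 by limma).

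Reads from several of these genes cannot be placed with certainty. A search of mm9 with the longest transcript of each member looked for other loci of at least 200 bases and 90% identity. It found them for Gapdh (135), Eno1 (9), Ldha (8), Aldoa (5), Pgk1 and Pgam1 (3 each) and Tpi1 (2). Another 6 had 1 each: Ldhb, Pdha1, Pdhb, Cs, Gpi1 and Suclg2. How the authors' pipeline shared such reads was not tested. Eno1, the ubiquitous enolase, was listed near 0 in all but 2 libraries, where it was at 2.49 and 2.06 FPKM, so no change is given for it. Hk1, Pdk1, Idh2, Sucla2 and Suclg1 had no such locus.

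Both lactate dehydrogenases fell. Ldhb, which encodes the heart-type subunit, had a median of 117 FPKM in 2C embryos (17.9 to 217) and 3.58 in 8C embryos (1.01 to 30.4). Its log2 fold change was −4.49 ± 0.32, with an adjusted p of 3.02e-19. The ranges met only through the lowest 2C embryo, which is the one with a 4-cell column name, and 1 8C sg embryo at 30.4 FPKM. Ldha, the muscle-type subunit, went from 20.7 (0 to 48.6) to 2.72 FPKM (0 to 11.97), with a log2 fold change of −2.42 ± 0.46. The 2C value of 0 was again the embryo with a 4-cell column name. Without it the fold changes were −4.66 for Ldhb and −2.70 for Ldha.

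At the pyruvate dehydrogenase complex the subunit and its kinase moved apart. Pdha1 rose from a median of 9.79 FPKM (0.971 to 47.0) to 169 (15.4 to 320.4), a log2 fold change of 3.60 ± 0.39 with an adjusted p of 2.26e-12. Pdk1 fell from 4.68 (0.230 to 10.7) to 0.115 FPKM (0 to 0.665), by 2.25 ± 0.21 on the log2 scale. Dlat, the acetyltransferase of the complex, rose from 1.82 to 7.29 FPKM. Pdhb had medians of 78.6 and 130.0 FPKM and did not pass the test in single embryos. Within the eBE library set, described below, Pdhb was called higher (0.74, adjusted p of 0.0106 by limma). Pcx, which turns pyruvate into oxaloacetate, fell from 1.56 to 0.522 FPKM.

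Within the TCA cycle the rise was uneven. Suclg1, the subunit common to both succinyl-CoA ligases, rose most, from 2.79 FPKM (0 to 21.0) to 57.9 (14.1 to 121), a log2 fold change of 3.88 ± 0.43. Idh3b and Idh3g, regulatory subunits of the NAD-dependent isocitrate dehydrogenase, rose from 9.42 to 100.5 FPKM and from 18.6 to 155 FPKM. Idh3a, its catalytic subunit, had medians of 13.96 and 7.74 FPKM and did not pass the test. It was called lower with the library set (eBE, BE4 or other, described below) as a term in the limma fit (−0.72, adjusted p of 0.0356). Without the libraries with a 4-cell column name Idh3a was called lower too (−0.82, adjusted p of 0.0449 by limma). Idh2, the mitochondrial NADP-dependent enzyme, rose from 5.29 to 34.8 FPKM and Sucla2, the ATP-forming ligase subunit, from 21.0 to 87.4. Suclg2, the GTP-forming subunit, rose from 4.12 to 11.9, Ogdh, the first component of the oxoglutarate dehydrogenase complex, from 4.85 to 10.97, and Fh1, fumarase, from 7.79 to 17.1. Fh1 was called in 7 of 14 other settings and not without the libraries with a 4-cell column name (0.77, adjusted p of 0.0633 by limma). Mdh1, the cytosolic malate dehydrogenase, fell from 21.9 to 6.59 FPKM. Dlst, the second component of the oxoglutarate dehydrogenase complex, Cs and Mdh2 did not pass the test. Rescaled to a common sum, Dlst (−0.68, adjusted p of 0.0309 by limma) and Cs (−0.505, adjusted p of 0.026) were called lower. With the library set as a term Mdh2 was called higher (0.83, adjusted p of 0.0221 by limma).

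Single-embryo libraries were split into an eBE and a BE4 set by the name or, for some, only the library number of their column. Replicates 1 to 3 of the 2C sg embryos and the libraries with a 4-cell column name are in neither set. Whether this split marks an editor, a sequencing run or both is not given in the sources used here. Counts and some calls differ between the sets. Among eBE libraries 17 members rose and 12 fell, and among BE4 libraries 5 rose and 10 fell. The share of all genes called within each set is not given here, so these counts are no mark of the members. Ldhb (−4.46 and −4.86), Ldha (−2.13 and −3.60), Pdha1 (3.97 and 3.26) and Suclg1 (3.96 and 3.60) passed the test in both sets, as did Idh3a (−0.70 and −1.54). Sucla2 (2.15 and 0.96), Idh2 (2.54 and 1.14) and Pgam1 (1.68 and 1.14) passed among eBE libraries only, a difference between sets that was not itself tested. Fh1 had a log2 fold change of −0.32 among BE4 libraries.

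**Figure D2:**
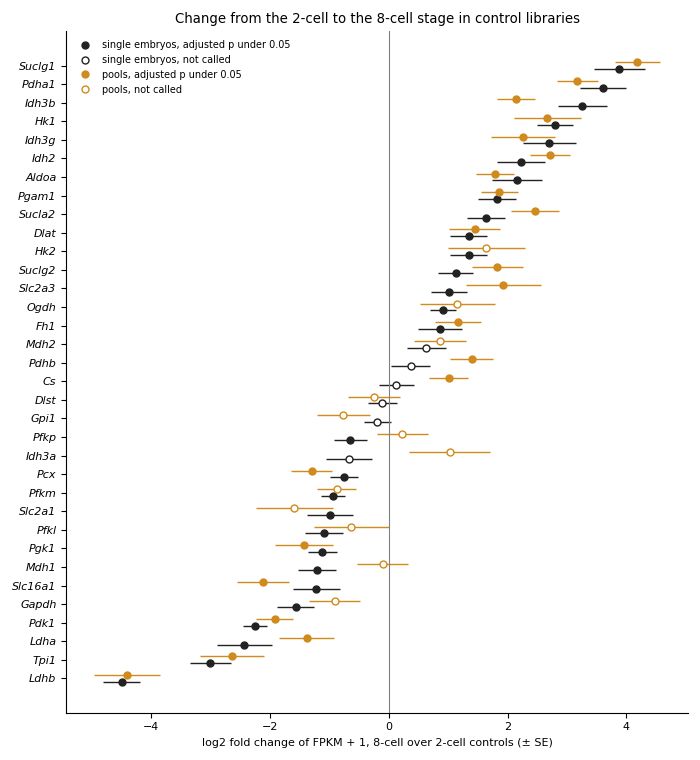
Log2 fold change of FPKM + 1 from 2C to 8C (± SE) for each member in single control embryos and in control pools, with filled points for an adjusted p under 0.05 (limma). Suclg1 and Pdha1 lie farthest to the right and Ldhb farthest to the left in both kinds of library.

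NC pools gave a second, separate set of libraries for the same interval, with 2 pools at 2C, 2 at 4C and 6 at 8C. The 2C pools came from another siRNA series than the 4C and 8C pools, so stage and series cannot be told apart. From 2C to 8C 15 members rose and 7 fell, where 18.6% of 12181 genes rose and 27.9% fell, and the median log2 fold change was 1.02 beside −0.24 for all genes. Rescaled to a common sum, 10 rose and 10 fell, with a median of −0.95 for all genes. Ldhb was at 87.4 and 88.8 FPKM in the 2C pools and at 2.14 to 4.496 in the 6 8C pools (log2 fold change −4.40 ± 0.55). Suclg1 was at 4.91 and 4.49 FPKM in the 2C pools and at 71.3 to 165 in the 8C pools (4.18 ± 0.38). Pdha1 (3.18), Idh2 (2.72), Hk1 (2.67), Sucla2 (2.46), Idh3g (2.26) and Idh3b (2.15) rose, and Tpi1 (−2.63), Slc16a1 (−2.12), Pdk1 (−1.91), Pgk1 (−1.42), Ldha (−1.38) and Pcx (−1.30) fell. Slc2a3 rose by 1.93, while Slc2a1 (−1.59) and Hk2 (1.64) did not pass the test. Without replicate 2 of the 2C NC pools 13 members were called in place of 22.

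Part of the change in pools was seen by the 4C stage, where stage and series again cannot be told apart from 2C. From 2C to 4C 6 members rose (Suclg1, Pdha1, Idh3b, Sucla2, Idh2 and Pdhb, with log2 fold changes of 4.09, 2.68, 2.204, 1.70, 1.69 and 1.34) and 3 fell (Ldhb, Pdk1 and Slc16a1, with −3.34, −2.06 and −1.90). Of all genes 11.2% rose and 17% fell, and rescaled to a common sum, 3 members rose and 6 fell, with 5 and 6 under median-ratio scaling. Slc2a1 (−2.18), Slc2a3 (1.21), Hk1 (1.93), Hk2 (0.58) and Ldha (0.36) did not pass the test. Ldhb was at 3.16 and 17.6 FPKM in the 4C pools. The lower value lay within the range of the 8C pools (2.14 to 4.496) and the higher one between the 8C and the 2C pools. Ldha was at 26.0 and 25.9 FPKM at 4C, above the 21.6 and 18.6 of the 2C pools.

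Between 4C and 8C no member passed the test in limma, and neither did any other gene (0%). Without adjustment 3 of 33 members and 776 of 10476 genes had a p under 0.05, with Ldha at a log2 fold change of −1.73, Pgam1 at 1.24 and Suclg2 at 1.16. The values of Slc2a1 (0.47), Slc2a3 (0.45), Slc16a1 (0.23), Hk1 (0.93), Hk2 (1.41), Ldhb (−0.93) and Pdk1 (0.13) did not pass either.

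A further 71 genes of these pathways were listed beside the members. In single embryos, of 54 tested, 24 rose and 20 fell from 2C to 8C, with a median log2 fold change of 0.41 beside 0.25 for the members. The 3 largest rises were those of Fbp2, a fructose bisphosphatase that reverses the phosphofructokinase step (6.19), Idh1, the cytosolic NADP-dependent isocitrate dehydrogenase (3.19), and Tkt, transketolase (2.45). Bpgm, which makes bisphosphoglycerate (−4.87), G6pdx, the entry to the pentose phosphate pathway (−3.31), and Pdk3, another pyruvate dehydrogenase kinase (−2.88), fell most. The succinate dehydrogenase subunits Sdha (2.04) and Sdhb (2.09), of the TCA cycle, rose.

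The siRNA series asked which of these genes depend on the receptors. In 8C pools the 10 that received Nr5a2 siRNA, alone or with others, and the 14 that did not can be set side by side as a description across 3 series with controls of their own. Sucla2 was at 17.3 to 66.5 FPKM (median 48.7) with Nr5a2 siRNA and at 63.4 to 169 (98.4) without, and 9 of the 10 pools lay below all 14 others. Idh2 was at 9.79 to 31.1 FPKM (15.2) with and 27.7 to 63.1 (43.3) without, with 8 of 10 pools below. Ldha was at 12.7 to 109 FPKM (49.0) with and 1.25 to 22.3 (8.87) without, with 9 of 10 pools above. Pgam1 followed with 7 of 10 pools below all others, while Slc16a1 and Ldhb each had 4 of 10 above and Hk1 4 of 10 below. No member separated the pools completely, as 1.33% of 9551 genes did. The share of all genes with 7 to 9 of 10 pools beyond the others was not counted, so these counts are no mark of the members.

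**Figure D3:**
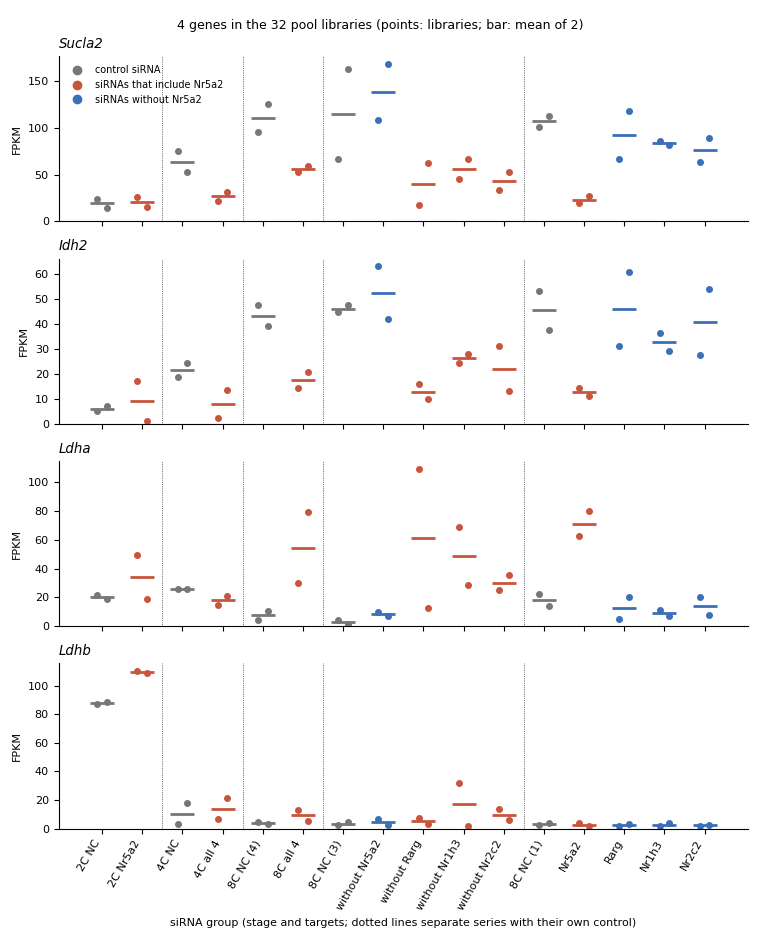
FPKM of Sucla2, Idh2, Ldha and Ldhb in each of the 32 pools by siRNA group, with points for libraries and bars for the mean of 2. Nr5a2 siRNA groups at 8C lie low for Sucla2 and Idh2 and high for Ldha, and Ldhb is high only in the 2C pools.

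When Nr5a2 siRNA was injected alone, Sucla2 fell. It was at 101 and 113 FPKM in the NC pools and at 19.8 and 26.6 in the Nr5a2 KD pools, without overlap. The log2 fold change was −2.17 ± 0.38 and the adjusted p (limma, over 10163 genes) was 0.0121. It was the 1 member of 32 called, where 2.39% of genes were called lower. In 11 other settings its fold change stayed between −2.37 and −1.87, and the adjusted p rose to 0.112 without replicate 1 and 0.163 without replicate 2 of the NC pools.

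Other TCA and glycolytic genes were lower in the same pools but did not pass the test. Idh2 was at 53.5 and 37.7 FPKM in NC and at 14.3 and 11.2 in Nr5a2 KD pools (log2 fold change −1.74 ± 0.45, adjusted p of 0.0651 by limma). Hk1 was at 17.1 and 25.6 against 5.70 and 3.12 FPKM (−2.06 ± 0.53, adjusted p of 0.0651). In all 15 of 32 members were lower without overlap between the pools, Pfkp (−1.67), Mdh1 (−1.67), Fh1 (−1.17) and Suclg1 (−1.04) among them, where 33.1% of all genes were. Ldha was at 22.3 and 13.8 FPKM in NC and at 62.7 and 79.7 in KD pools (1.95 ± 0.61, adjusted p of 0.120). Slc2a1 (−0.67), Slc2a3 (0.35), Slc16a1 (0.87), Hk2 (−0.84) and Ldhb (−0.08) had p above 0.05 before adjustment. Over the 32 members 26 fold changes were negative, with a median of −0.50 beside −0.22 for all genes.

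Of the 71 other pathway genes, 2 of 47 tested fell in Nr5a2 KD pools. They were Mpc1, a subunit of the carrier that brings pyruvate into mitochondria (36.9 against 185 FPKM, log2 fold change −2.33 ± 0.34), and Idh1 (5.68 against 59.1 FPKM, −3.20 ± 0.44). None rose.

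Markers moved in these pools as well. The 8 oocyte markers summed to 88.2 and 135 FPKM in Nr5a2 KD pools and 36.2 and 46.5 in NC pools, mostly Zp3, and none of the 8 passed the test. Of 7 markers of the 8C embryo Tdgf1 fell (3.27 against 60.3 FPKM) and Upp1 rose (24.4 against 1.72). The part of developmental timing in the members' values was not tested.

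The other 3 siRNAs, measured against the same NC pools, called no member in limma. Without adjustment 0 of 32 members had a p under 0.05 for Rarg, 0 for Nr1h3 and 2 for Nr2c2 (Mdh1 at −1.45 and Fh1 at −1.32), beside 382, 297 and 426 of all genes. After adjustment 0.00984% of genes were called for Rarg, the same share for Nr1h3 and 0.0787% for Nr2c2. Sucla2 was at 66.5 and 118 FPKM with Rarg siRNA, 86.1 and 81.2 with Nr1h3 siRNA and 63.4 and 88.7 with Nr2c2 siRNA. Ldha was at 4.80 and 20.5, 11.2 and 7.10, and 19.9 and 8.00 FPKM in the same order. For Hk1 the log2 fold changes were −0.75, −0.62 and −1.10, for Slc16a1 0.76, 0.99 and 0.54, and for the other named carriers, Hk2 and Ldhb between −0.62 and 0.62.

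**Figure D4:**
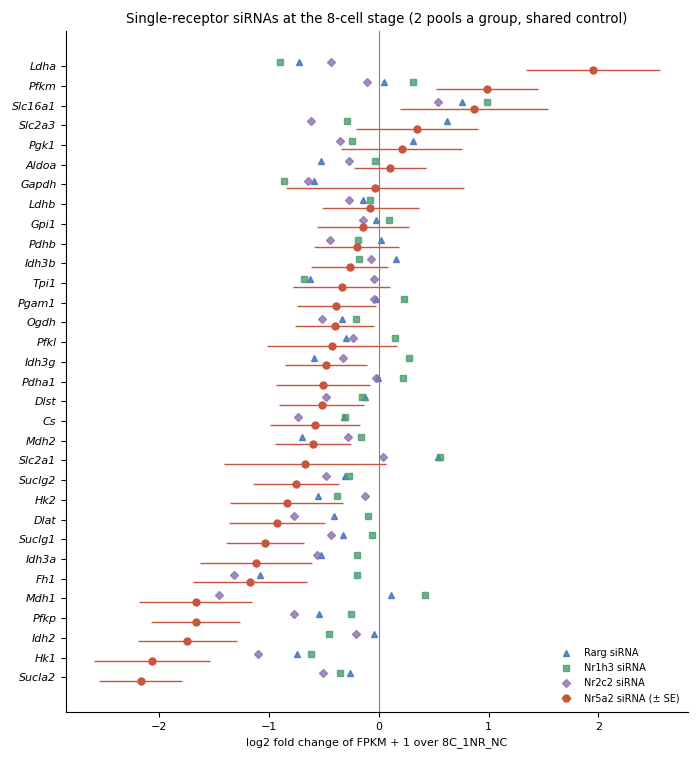
Log2 fold change of FPKM + 1 for 32 members under each single siRNA at 8C over the shared NC pools, with the SE drawn for Nr5a2 siRNA. For Sucla2 and Ldha the Nr5a2 point lies away from the other 3.

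Nr5a2 siRNA was then set directly against the other 3, taken as their mean, a contrast that uses no NC pool. Ldha was higher by 2.64 ± 0.50 on the log2 scale (mean of 71.2 against 11.9 FPKM, adjusted p of 0.0144), Sucla2 was lower (−1.80 ± 0.31, 23.2 against 84.1 FPKM, adjusted p of 0.00888) and so was Idh2 (−1.51 ± 0.37, 12.8 against 39.8 FPKM, adjusted p of 0.0429). These were 1 member higher, where 0.787% of genes were called, and 2 lower, where 3.16% were. Without replicate 1 of the Nr5a2 KD pools no member was called, and 1 was called without its replicate 2, without either Nr1h3 KD pool or without replicate 2 of the Nr2c2 KD pools. Without replicate 1 of the Nr2c2 KD pools, the one with the high 2C marker sum, Ldha (2.84) and Sucla2 (−1.88) passed and Idh2 did not (−1.67, adjusted p of 0.0513 by limma). Hk1 (−1.24), Slc2a1 (−1.05), Slc2a3 (0.44), Slc16a1 (0.11), Hk2 (−0.48) and Ldhb (0.09) did not pass. Among the other pathway genes Mpc1 (−2.49), Idh1 (−2.79) and Got1, a cytosolic aspartate aminotransferase that feeds the malate-aspartate shuttle (−1.32), were lower.

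In the 3-siRNA series each combination left 1 receptor untargeted. Ldha was at 4.49 and 1.25 FPKM in NC pools, at 9.75 and 7.203 in pools without Nr5a2 siRNA, and at 109 and 12.7, 68.9 and 28.9, and 25.0 and 35.4 in pools without Rarg, Nr1h3 and Nr2c2 siRNA. All 6 pools with Nr5a2 siRNA were above the 4 without, as in 2.7% of 10626 genes. Replicate 1 of the pools without Rarg siRNA is the one with a 2C marker sum of 80.7 FPKM, whose part in the values of this series was not tested. The log2 fold changes over NC were 3.47 ± 0.85, 3.70 ± 0.85 and 3.13 ± 0.85 in the 3 combinations with Nr5a2 siRNA and 1.42 ± 0.85 in the other. None passed the test in limma (adjusted p of 0.301, 0.267, 0.311 and 1.00). In the combinations without Rarg, Nr1h3, Nr2c2 and Nr5a2 siRNA, in this order, the fold changes of Slc16a1 were 0.93, 0.79, 1.73 and 0.77, those of Hk1 −0.45, −0.91, −0.17 and 0.78, and those of Ldhb 0.57, 1.17, 1.25 and 0.26. Those of Slc2a1, Slc2a3 and Hk2 lay between −0.70 and 0.77, none of these 6 genes passed in either fit, and Pdk1 was under the level tested.

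Libraries with the same replicate number deviated together in this series, and the fit with the replicate as a block called more. With the block Ldha had adjusted p of 0.0392, 0.0334 and 0.0499 in the combinations without Rarg, Nr1h3 and Nr2c2 siRNA, and 0.974 without Nr5a2 siRNA. It was the 1 member called in each of the first 3, where the block called 0.423%, 0.329% and 0.612% of genes. Without the block the shares were 0.0565%, 0.00941% and 0%, and 0% for the combination without Nr5a2 siRNA, with 3, 3, 3 and 0 of 31 members and 664, 739, 783 and 251 of 10626 genes at an unadjusted p under 0.05.

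The same series compared pools with and without Nr5a2 siRNA while 3 receptors were always targeted. Sucla2 was at 109 and 169 FPKM without Nr5a2 siRNA and at 17.3 and 62.0, 45.1 and 66.5, and 33.9 and 52.2 with it, where NC pools were at 66.4 and 162. Its log2 difference was −1.65 ± 0.51, with an adjusted p of 0.259 and of 0.0130 with the replicate block. Idh2 was at 63.1 and 41.9 FPKM without and 9.79 to 31.1 with Nr5a2 siRNA, a difference of −1.40 ± 0.40 (adjusted p of 0.220, and 0.0408 with the block). Ldha differed by 2.01 ± 0.70, with adjusted p of 0.325 and 0.0666. No member was called without the block (0.282% of genes, and 3 of 31 members against 1075 genes at an unadjusted p under 0.05) and 2 with it (2.47%). Hk1 (−1.29), Slc2a1 (−0.22), Slc2a3 (−0.37), Slc16a1 (0.38), Hk2 (0.37) and Ldhb (0.74) did not pass in either fit. Oocyte markers summed to 96.4 to 190 FPKM in the 6 pools with and 34.3 to 66.2 in the 2 pools without Nr5a2 siRNA, and Idh1 was the 1 other pathway gene of 48 called (15.1 against 122 FPKM, −3.05).

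With all 4 siRNAs no member passed the test at either stage. At 4C Sucla2 was at 75.1 and 52.8 FPKM in NC and 22.2 and 31.2 in KD pools (−1.23 ± 0.39), Suclg1 at 104 and 87.8 against 42.5 and 47.2 (−1.08 ± 0.34), and Idh2 at 19.0 and 24.3 against 2.41 and 13.4 (−1.68 ± 0.63). At 8C Sucla2 was at 95.7 and 125 against 52.2 and 58.7 FPKM (−0.97 ± 0.39), and Idh2 at 47.6 and 39.3 against 14.5 and 20.7 (−1.27 ± 0.63). Suclg1 was −0.35 at 8C, and Cs (0.21 and 0.13), Idh3b (0.03 and 0.23) and Ogdh (−0.06 and 0.42) were not lower at both stages. Of 33 members 11 at 4C and 12 at 8C were lower without overlap between the pools, where 15.3% and 19.2% of all genes were. Limma called 0% of 10476 genes at 4C, at 8C and for the difference between the stages. Without adjustment 3 of 33 members and 610 genes had a p under 0.05 at 4C, and 5 of 33 and 784 at 8C.

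Ldha was at 26.0 and 25.9 FPKM in NC and at 14.9 and 20.8 in KD pools at 4C, and at 4.57 and 10.8 in NC and 29.8 and 79.0 in KD pools at 8C. The fold changes were −0.53 ± 0.56 and 2.62 ± 0.56 on the log2 scale, and the difference of 3.15 ± 0.80 had an adjusted p of 1.00 (limma), with 1 of 33 members and 259 genes at an unadjusted p under 0.05. The stage differences of the other 7 named genes, from Slc2a1 to Pdk1, lay between −0.98 (Pdk1) and 0.49 (Ldhb). In both 8C KD pools Ldha lay above the level of the 4C NC pools. Mdh1 was at 17.5 and 17.4 against 2.64 and 8.08 FPKM at 8C (−1.68) and Hk1 at 7.25 and 16.6 against 0.979 and 5.54 (−1.74). At 4C and 8C the fold changes were −0.22 and −0.58 for Slc2a1, 0.88 and 0.04 for Slc2a3, 0.52 and −0.09 for Slc16a1, 0.33 and −0.04 for Hk2, 0.55 and 1.05 for Ldhb, and 0.90 and −0.08 for Pdk1. The 2C markers summed to 117 and 305 FPKM in NC and 36.2 and 49.5 in KD pools at 4C, without overlap, and to 11.2 and 13.96 in NC and 20.7 and 14.6 in KD pools at 8C, and their part in the members' values was not tested. The oocyte marker sums overlapped, at 44.7 and 67.7 FPKM in NC and 52.1 and 79.9 in KD pools at 8C.

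In 2C pools Nr5a2 siRNA called no member. Sucla2 was at 23.8 and 14.6 FPKM in NC and 26.5 and 15.5 in KD pools, Idh2 at 5.01 and 7.03 against 17.0 and 1.29, Ldha at 21.6 and 18.6 against 49.2 and 18.6, and Ldhb at 87.4 and 88.8 against 110 and 109. The first 3 overlapped. Limma called 0.0167% of 11958 genes, and 2 of 33 members (Pfkp at 1.21 and Mdh1 at 0.99) and 558 genes had an unadjusted p under 0.05. Slc2a1 (−0.10), Slc2a3 (1.10), Slc16a1 (0.53), Ldhb (0.31) and Pdk1 (0.42) did not pass, and Hk1 and Hk2 were under the level tested.

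Base editing of Nr5a2 in single embryos gave no call among the members at either stage. At 2C limma called 0.00805% of 12420 genes, and 0 of 34 members and 1444 genes had an unadjusted p under 0.05. At 8C it called 0.164% of 9760 genes, and 4 of 32 members and 1058 genes had an unadjusted p under 0.05. The difference between the stages called 0.0385% of genes and no member, with Slc16a1 at 1.34 and Pgam1 at −1.19 under an unadjusted p of 0.05, 2 of 34 members beside 1258 genes. The other carriers, the hexokinases, the lactate dehydrogenases and Pdk1 had stage differences between −0.71 (Slc2a1) and 0.92 (Ldha).

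**Figure D5:**
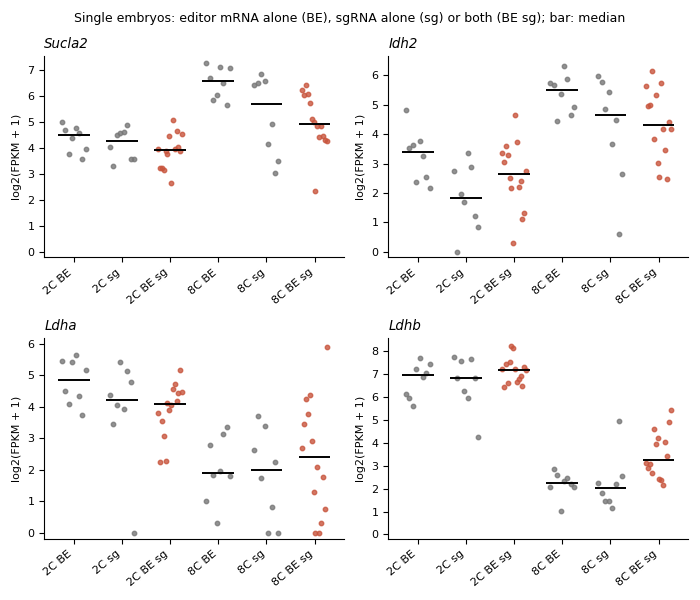
FPKM of Sucla2, Idh2, Ldha and Ldhb in each single embryo by stage and injection, with the median of a group as a bar. The 8C BE_sg embryos overlap both control groups for all 4 genes, with a lower median for Sucla2 and a higher one for Ldhb.

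Sucla2 was at 4.08 to 83.9 FPKM (median 29.7) in the 14 8C BE_sg embryos, at 49.4 to 154 (95.4) in BE embryos and at 7.15 to 114 (57.5) in sg embryos. The 3 ranges overlapped. The log2 difference from the mean of both control groups was −0.87 ± 0.39, with an adjusted p of 0.404 (limma). It was −0.65 among eBE libraries, −0.85 among BE4 libraries and −0.75 without the embryos with a 4-cell column name. It was −1.51 with BE embryos alone as controls and −0.23 with sg embryos alone, so its size rested on the control group, and it was not called in any of 14 other settings.

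Ldhb, the gene with the smallest p among the members, was at 3.49 to 42.8 FPKM (median 8.64) in 8C BE_sg embryos, at 1.01 to 6.18 (3.82) in BE embryos and at 1.23 to 30.4 (3.06) in sg embryos. The difference was 1.31 ± 0.34 with an adjusted p of 0.150 (limma). A pair of settings called it: 1.504 with an adjusted p of 0.0148 when the embryo with the lowest FPKM sum of each group was left out (1.42% of genes called), and 1.38 with 0.0491 among eBE libraries (0.347%). Among BE4 libraries it was 0.68 (adjusted p of 0.999) and without the embryos with a 4-cell column name 1.03 (0.379). The highest 8C BE_sg embryo, at 42.8 FPKM, and another at 29.3 are the pair with a 4-cell column name. Oocyte markers summed to 39.7 to 302 FPKM in 8C BE_sg embryos, 18.3 to 65.6 in BE and up to 143 in sg embryos, and 1 of the 8, Gdf9, rose (19.6 against 5.49 FPKM). Their part in the value of Ldhb was not tested.

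Ldha, high in pools with Nr5a2 siRNA at 8C, had a median of 4.36 FPKM (0 to 58.2) in 8C BE_sg embryos beside 2.72 in BE and 3.06 in sg embryos, and the highest value was that of an embryo with a 4-cell column name. Its difference was 0.48 ± 0.52, and by library set it was 0.86 (eBE) and −0.21 (BE4). Idh2 had medians of 18.7, 44.9 and 24.6 FPKM in BE_sg, BE and sg embryos (−0.43 ± 0.44). Pgam1 (−0.89) and Gpi1 (−0.52) had an unadjusted p under 0.05 and did not pass after adjustment. Slc2a1 (−0.25), Slc2a3 (−0.41), Slc16a1 (0.89), Hk1 (−0.19) and Hk2 (0.30) did not pass, and Pdk1 was under the level tested at 8C. At 2C the differences were 0.46 for Slc2a1, 0.29 for Slc2a3, −0.44 for Slc16a1, −0.28 for Hk1, −0.34 for Hk2, −0.45 for Ldha, 0.45 for Ldhb and 0.23 for Pdk1.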

How the data were processed

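RNA was measured by Smart-seq2 in injected mouse embryos. The authors mapped reads to mm9 with TopHat and deposited 1 FPKM per gene made by Cufflinks on refFlat, per their methods. Of 113 samples, 92 have an FPKM file here and 21 were not analysed here. FPKM hold no read counts, so depth is known only on a relative scale: the spacing of low FPKM gave 0.366 to 1.28 in pools and 0.532 to 1.51 in single embryos, with the median library at 1.

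Members, lists, tests and alternatives were chosen with earlier results of these data known. Each series was fitted with limma 3.58.1 (R 4.3.3) on log2(FPKM + 1), with a variance trend, over genes with a mean of at least 1 FPKM in a group, with Benjamini-Hochberg adjustment and calls at an adjusted p under 0.05. Fold changes on this scale understate changes of low genes. The text names every called member (beyond 12, the 6 largest in each direction) and, in each comparison, 8 fixed genes (the carriers, hexokinases, lactate dehydrogenases and Pdk1). BE_sg embryos were compared with the mean of BE and sg embryos. Same-numbered libraries deviated together in the 3-siRNA series alone (r of 0.278 to 0.513 over 10 pairs of groups), where the blocked fit is given too. Scripts were tested on simulated data. Stage, siRNA and editing comparisons share control libraries.

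Alternatives were other pseudocounts, filters and scalings, and the study's limits (a log2 fold change of 2 and 0.01 for the adjusted p). Others were a replicate block, 1 control group, leaving out single libraries, the library set as a term and fits within the eBE or BE4 set. A block within each stage and a setting with scaling and library set together were chosen after seeing the data.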

Additional observations from a re-analysis of the deposited data

Results flagged for a closer look

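Embryos that stood apart from the 7 others of their group by Dixon's test were looked for in 132 sets of 8 control embryos, and 16 were found. The test's chance rate of about 1 in 20 holds for independent, normally distributed values. FPKM were not transformed here and genes of the same embryos were counted as separate sets, so 16 cannot be set against that rate. Among 2C BE embryos they were Hk1 at 4.23 FPKM and Pgk1 at 19.2 in replicate 4, Idh2 at 27.2 in replicate 1 and Idh3b at 41.9 in replicate 2. Among 2C sg embryos they were Pdha1 at 40.7 and Idh3b at 44.7 FPKM in replicate 8, which has a 4-cell column name, Hk2 at 5.71 and Dlat at 5.75 in replicate 7, Pfkm at 7.91 in replicate 2, Pfkp at 8.97 in replicate 1, Pcx at 5.78 and Fh1 at 18.4 in replicate 6, and Suclg1 at 8.32 in replicate 5. At 8C they were Pfkp at 5.19 FPKM in replicate 4 and Fh1 at 55.7 in replicate 1 of the BE embryos, and Ldhb at 30.4 in replicate 7 of the sg embryos, whose next value was 4.82. All 16 were the highest value of their group.

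The response to Nr5a2 siRNA differed from that to the other 3 single siRNAs for Ldha (2.64), Idh2 (−1.51) and Sucla2 (−1.80), as log2 differences that passed the test in limma. Under all 4 siRNAs Ldha was flagged because its KD pools lay above NC pools at 8C and below them at 4C. Of all genes 18.1% lay higher without overlap at 8C and 15.3% lower at 4C. The share of genes that did both was not counted, so this is no mark of Ldha. Its log2 difference between the stages, 3.15, did not pass the test, with an adjusted p of 1.00 (limma).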

How the results depend on the processing

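Called members kept their direction under every setting tried, except Fh1 in single control embryos, which had a log2 fold change of −0.32 from 2C to 8C among BE4 libraries. For that comparison the study's limits called 11 members, sg embryos alone as controls 18 and BE4 libraries alone 15, in place of 28. In pools the study's limits called 10 of the 22 members from 2C to 8C and 5 of the 9 from 2C to 4C. Leaving out 1 pool gave 13 to 23 and 6 to 9. For Nr5a2 siRNA alone a pseudocount of 0.1 called 2 members, a filter of 5 FPKM called 3, the study's limits 0, and a fit of the groups compared alone 2. Leaving out 1 pool gave 0 to 1. For Nr5a2 against the other siRNAs no filter called 1 member, the study's limits 0, and leaving out 1 pool 0 to 3. Editing at 8C called 1 member (Ldhb) without the lowest FPKM sums and 1 among eBE libraries.

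The replicate block called 1 member in each 3-siRNA combination with Nr5a2 siRNA and 2 between pools with and without it, as given above. In the other series libraries shared only a number (correlations of deviations of −0.297 to 0.346), and the block left 28 members called in single embryos, 22 and 8 in pools, 1 for Nr5a2 siRNA and 2 for Nr5a2 against the others. With 2 pools a group, an absent call does not show an absent difference. The causes of these shifts were not tested.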
